A study of Homo sapiens with 11 samples.

Results

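The genes described here are 31 human genes for proteins that HIV-1 uses in its replication cycle or that regulate such proteins. They were taken by symbol from the deposited count file, where all 31 of them were found among 35303 named genes, and all 31 were among the 16117 genes with enough counts to be tested. By role, 9 act at the transcription step of the viral protein Tat, and 8 in capsid handling, nuclear import and integration. A further 2 act in export of viral RNA, and 12 in the late endosome, the ESCRT machinery and budding. RNA came from LX-2, a human hepatic stellate cell line made immortal for culture; stellate cells form scar tissue in the liver. All cells were labelled wild type and were sampled at 24 h. Cells of 1 group received PBS, cells of the next received HIV-1BaL at a multiplicity of infection (MOI) of 0.1, and cells of the last received the same dose of virus plus 1 ug per ml of LTA (lipoteichoic acid, made in the wall of Gram-positive bacteria). There were 3 libraries per group, 1 from each of 3 batches, and the batch number in the labels is the replicate number. The labels do not say whether the libraries came from separate cultures, so p-values reflect only how far these libraries differ, which can be technical spread. No group had LTA alone, and all libraries with LTA also had virus.

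HIV-1 carries few genes and relies on host proteins at nearly every step. Its capsid is carried through the nuclear pore with the help of cyclophilin A, nucleoporins and CPSF6, and the viral integrase is held on chromatin by LEDGF, the product of PSIP1. Once integrated, the viral promoter makes mostly short RNAs until Tat brings in P-TEFb, a kinase made of CDK9 and a cyclin T, which is otherwise kept inactive on 7SK RNA by HEXIM1 and LARP7. Unspliced viral RNA leaves the nucleus through the exportin XPO1, and new particles are cut from the membrane by the ESCRT machinery, which the cell uses for its own late endosomes.

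Library totals ran from 50628144 to 90599780 counts. Of 11 stellate and mesenchymal markers, 9 were at 1 CPM or more in every library (CPM, counts scaled to the TMM-adjusted size of the library), while the quiescent stellate cell marker LRAT and the filament gene DES were at or below 0.26 CPM. All 6 hepatocyte markers were at 1.77 CPM or less. Of 8 T cell and macrophage markers, only CD4, the HIV-1 receptor, was at 1 CPM or more in every library, at 12.8 to 18.2 CPM in batches 1 and 2 and at 1.36 to 2.43 CPM in batch 3. Counts here report human transcripts, and viral RNA was not analysed here, so how many cells were infected is not known from these values. The batches differed far more than the treatments: across the 31 cofactor genes, a median of 81.7% of the variance in log2 CPM lay between batches and 7.38% between treatments, against 78.2% and 7.48% over all genes tested.

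All 31 cofactor genes were transcribed in LX-2 cells, and 16 of them were among the 10% of tested genes with the highest mean CPM. Levels can be compared between genes only per length, so CPM was divided by the length in kb of each gene's canonical transcript. On this scale PPIA, which encodes cyclophilin A, the peptidyl-prolyl isomerase that binds the HIV-1 capsid, had the highest level in PBS at 709 ± 124 CPM per kb (SD, n = 3). The chromatin protein gene CBX1 followed at 164 ± 13.9 CPM per kb, then the RNA helicase DDX3X at 148 ± 1.51, XPO1 at 146 ± 34.3 and the late endosome GTPase RAB7A at 139 ± 6.79. PPIA stood clear of all others. The wide range of XPO1, 121 to 185 CPM per kb, overlapped those of CBX1, DDX3X and RAB7A, so its place among them is not resolved, whereas CBX1 lay above DDX3X and DDX3X above RAB7A in every PBS library.

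The tail of this order held a cyclin subunit and an ESCRT subunit. CCNT2, which encodes a cyclin T that pairs with CDK9, had 4.9 ± 0.239 CPM per kb, below CCNT1, the cyclin that Tat binds, at 14 ± 0.223 CPM per kb. CHMP4A, a member of the CHMP4 family that forms the membrane-cutting filament, had the lowest level at 2.79 ± 0.474 CPM per kb, while its relative CHMP4B had 111 ± 1.91. Within a library CHMP4A made up 1.21% to 2.69% of the counts of this pair (95% Wilson intervals within 0.325 percentage points either side, counting error only). The order depends on the length used. With the union of all annotated exons in place of the canonical transcript, XPO1 went from rank 4 to rank 11 and CHMP2A from rank 17 to rank 25, while PPIA, CBX1 and CHMP4A kept ranks 1, 2 and 31.

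**Figure D1:**
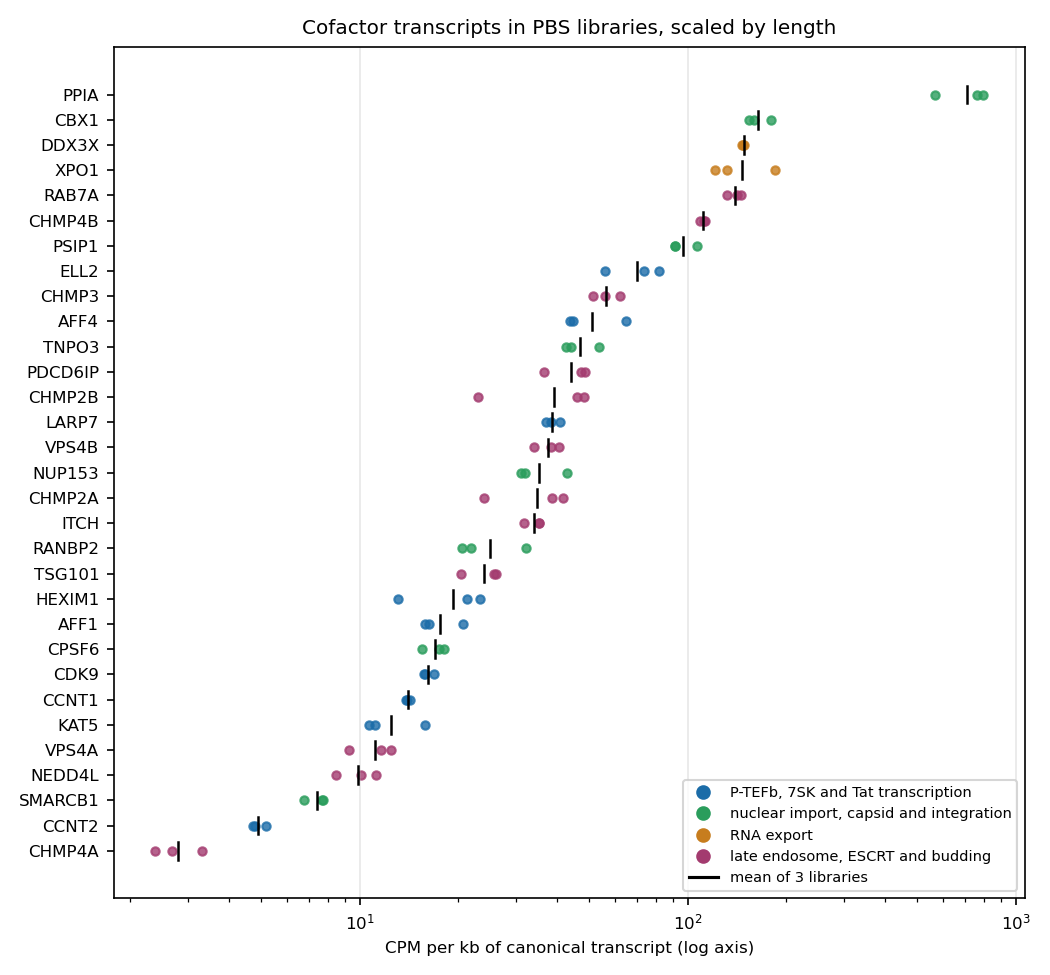
Each point is 1 PBS library and the black bar the mean of 3 libraries, in CPM per kb of canonical transcript on a log axis, with genes ordered by mean and coloured by role. PPIA lies at 709 CPM per kb, CHMP4A at 2.79, and neighbouring genes in the middle of the order overlap.

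Some of these counts may include reads of neighbouring genes, or lack reads that overlap such genes. The strand setting of the counting is not given in the sources used here, and same-strand genes overlap under any setting. In the GENCODE annotation of GRCh37, 54.8% of the KAT5 transcript lies over the opposite-strand gene RNASEH2C, 56.3% of SMARCB1 over DERL3, and 41.5% of VPS4A over genes that include COG8 and PDF. Same-strand readthrough genes cover 65.7% of the CHMP4A transcript, 42.7% of ITCH and 24.2% of CHMP3. PPIA has many processed pseudogenes that could share its reads. Values of these 7 genes are therefore uncertain in either direction, which includes the low level and the pair share of CHMP4A. Whether reads of neighbours moved with any result was not tested.

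Virus alone left no cofactor gene past the threshold. In the comparison of HIV-1 with PBS, 0 of 31 cofactor genes and 0 of 16117 genes (0%) had an adjusted p below 0.05 in edgeR's quasi-likelihood test with batch as a block. At an unadjusted p below 0.05 there were 0 cofactor genes, against 4.21% of all genes, and DESeq2 with the same block called 0 cofactor genes and 3 of 19990 genes (0.015%). The fitted differences were narrow: for 29 of 31 cofactor genes the 95% interval of the fold change lay within 1.25-fold in either direction, and for all 31 within 1.5-fold, against 58.1% of all genes within 1.25-fold. High counts narrow such intervals, and 16 of the 31 genes were in the top 10% of tested genes. The exceptions at 1.25-fold were CHMP4A, with 159 to 257 counts per library, and ELL2.

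The lowest p among the cofactor genes in this comparison was that of PSIP1, the integrase tether. Its level was 305, 305 and 359 CPM with PBS in batches 1, 2 and 3, and 295, 281 and 324 CPM with HIV-1. The HIV-1 library was the lower one in each batch, but the groups overlapped. The log2 fold change was -0.11 with a standard error (SE) of 0.0521 (edgeR adjusted p = 0.946).

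CHMP4A gave the highest fold change among the cofactor genes with HIV-1, at 0.27 ± 0.145 on the log2 scale (SE; edgeR adjusted p = 0.946). It had 2.62, 2.33 and 3.24 CPM with PBS against 2.87, 2.65 and 4.45 with HIV-1, higher in every batch but with groups that overlapped.

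The P-TEFb kinase itself showed small differences. CCNT1 was the single cofactor gene whose HIV-1 and PBS libraries did not overlap, against 2.74% of all genes, with 96.4, 93.5 and 94.2 CPM with PBS and 93.1, 92.6 and 88.9 CPM with HIV-1. The gap between the lowest PBS and the highest HIV-1 library was narrow, 93.5 against 93.1 CPM. Its log2 fold change was -0.05 ± 0.0515 (SE; edgeR adjusted p = 0.953). Its partner kinase CDK9 had a log2 fold change of 0.07 ± 0.0562 and CCNT2 one of 0.06 ± 0.0546.

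More cofactor genes lay below than above their PBS partner with HIV-1. The sign was negative in all 3 batches for 11 of 31 genes, against 17.1% of all genes, and positive in all 3 for 3 genes, against 16.3%. The median log2 fold change of the 31 genes was -0.0258, against -0.00151 over all genes tested. This count depends on the scaling: with library totals alone in place of TMM factors, 6 genes were lower and 6 higher in all 3 batches, against 11.3% and 22.1% of all genes, and the median turned to 0.00209 against 0.0257 over all genes.

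**Figure D2:**
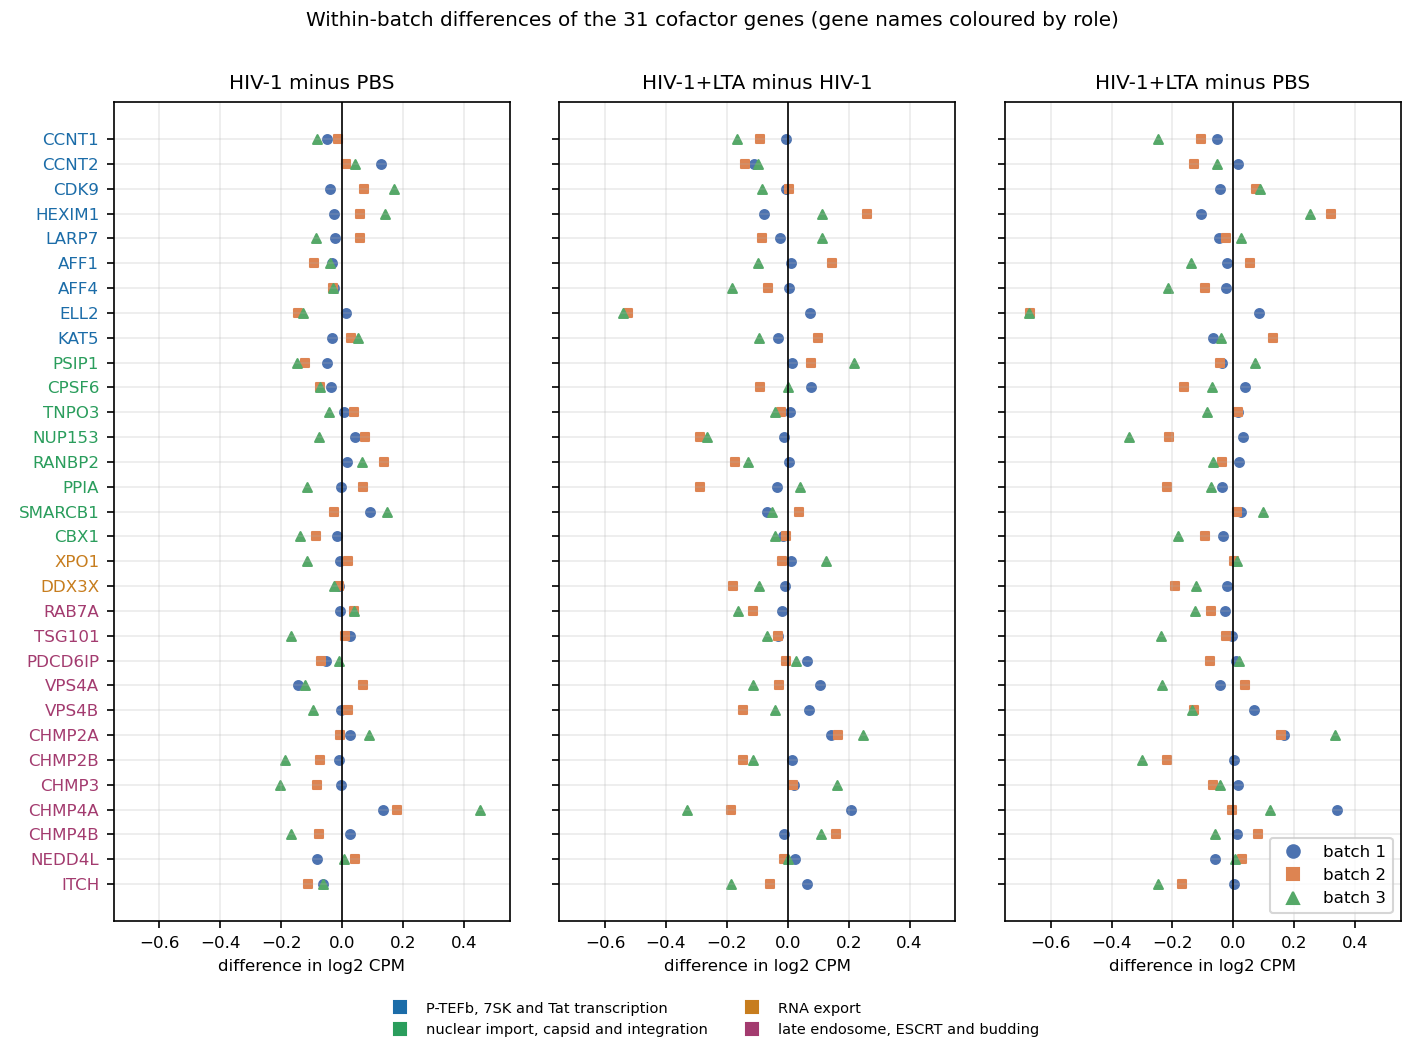
Each point is the difference in log2 CPM between 2 libraries of the same batch, for the 31 cofactor genes (rows, names coloured by role) and 3 comparisons (panels). With LTA, ELL2 lies near -0.67 in batches 2 and 3 and at 0.08 in batch 1, and CHMP2A lies to the right of 0 in all 3 batches.

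Adding LTA to the virus gave larger differences at a few cofactor genes, with both signs among the genes of the Tat step and among those of budding. The elongation factor ELL2, the nucleoporin NUP153 and the ESCRT gene CHMP2B had lower values with LTA, and the P-TEFb inhibitor HEXIM1 and the ESCRT gene CHMP2A higher ones, for most of these genes in batches 2 and 3 only. With all 9 libraries in the fit, 0 of 31 cofactor genes passed an adjusted p of 0.05 in edgeR for HIV-1+LTA against HIV-1, as did 0 of 16117 genes (0%), and the same held for HIV-1+LTA against PBS (0%). At an unadjusted p below 0.05 there were 3 of 31 cofactor genes (9.68%) against 15.4% of all genes in the first comparison, and 6 of 31 (19.4%) against 16.8% in the second. DESeq2 with the block called 0 cofactor genes in either comparison, against 252 of 13014 genes (1.94%) and 236 of 12239 genes (1.93%). Both comparisons use the same HIV-1+LTA libraries, so they are not independent.

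One library carried much of this outcome. The HIV-1+LTA library of batch 1 lay close to its batch partners: for HIV-1+LTA against PBS the median absolute difference of the cofactor genes was 0.0309 in batch 1, against 0.0824 in batch 2 and 0.122 in batch 3, and over all genes it was 0.0718, 0.17 and 0.181. Batch 1 also had the smallest differences for HIV-1 against PBS, which does not use that library. There the medians were 0.028, 0.0673 and 0.0874 for the cofactor genes in batches 1, 2 and 3. Over all genes they were 0.0742, 0.103 and 0.122. Without that library edgeR called 4 of 31 cofactor genes (12.9%) in the comparison with HIV-1, where 2390 genes (14.6%) were called, and 8 of 31 (25.8%) in that with PBS, where 2648 genes (16.2%) were called. Without the whole of batch 1 the counts were 2 of 31 and 1567 genes (9.69%), and 5 of 31 and 1733 genes (10.7%). Without batch 2 or without batch 3, 0 cofactor genes were called in either comparison. Each library was left out in turn, and the HIV-1+LTA library of batch 1 is singled out because its omission changed the calls. Leaving it out enlarges differences that it lacks. Adjusted p-values without it, here and below, are therefore descriptive and no independent support for a change. Why the differences were smaller in batch 1 was not tested.

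The sequence before the start of a gene is shown for 4 genes whose values with LTA were among the most distant from the other groups in batches 2 and 3, with the 2 CHMP2 genes as a pair. RefSeq windows on GRCh38.p14 of 250 bases before the start were found for 29 of the 31 genes. No window was found for CHMP3 or for ELL2, the gene with the lowest fold changes with LTA, so ELL2 could not be shown. They are read 5' to 3' on the gene's strand, and capitals mark every match, on either strand, to 7 motifs. The kappaB pattern was searched as GGGNNTTCC. The letters searched for the NRF1 factor were CGCNTGCGC, a pattern that can overlap itself on the other strand. For AP-1 the search used TGANTCA. ETS factors were represented by CCGGAAG. The GC box was GGGCGG in this search. The TATA box was sought as TATAAA, and the last motif was CCAAT itself.
CHMP2A (chr19:58555106-58555355, minus strand): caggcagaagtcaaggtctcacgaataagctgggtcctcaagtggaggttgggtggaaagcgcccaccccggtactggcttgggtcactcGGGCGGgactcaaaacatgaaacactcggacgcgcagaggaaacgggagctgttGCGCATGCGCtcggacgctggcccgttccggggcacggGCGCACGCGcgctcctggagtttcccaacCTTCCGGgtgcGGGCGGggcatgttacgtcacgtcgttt
CHMP2B (chr3:87227059-87227308, plus strand): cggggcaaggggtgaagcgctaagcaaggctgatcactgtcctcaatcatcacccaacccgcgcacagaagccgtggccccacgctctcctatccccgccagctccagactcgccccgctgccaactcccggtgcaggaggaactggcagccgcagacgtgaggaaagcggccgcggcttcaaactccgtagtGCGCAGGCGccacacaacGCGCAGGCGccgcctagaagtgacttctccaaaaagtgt
HEXIM1 (chr17:45148225-45148474, plus strand): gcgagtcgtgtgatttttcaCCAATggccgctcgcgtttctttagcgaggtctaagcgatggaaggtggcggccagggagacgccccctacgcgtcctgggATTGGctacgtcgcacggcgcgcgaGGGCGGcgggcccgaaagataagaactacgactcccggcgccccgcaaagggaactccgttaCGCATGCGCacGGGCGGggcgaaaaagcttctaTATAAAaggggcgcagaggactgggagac
NUP153 (chr6:17706926-17707175, minus strand): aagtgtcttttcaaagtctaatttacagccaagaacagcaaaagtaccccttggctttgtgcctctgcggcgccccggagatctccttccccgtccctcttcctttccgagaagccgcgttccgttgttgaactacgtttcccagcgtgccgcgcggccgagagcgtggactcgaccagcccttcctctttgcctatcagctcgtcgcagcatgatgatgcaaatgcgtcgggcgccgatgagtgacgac

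The CHMP2 windows share the letters of the NRF1 pattern and differ in the rest. CHMP2A holds this pattern at 2 places, the ETS letters at 1 and the GC box at 2, whereas CHMP2B holds the NRF1 pattern at 2 places and no other of the 7 motifs. HEXIM1 holds the NRF1 pattern, a TATA box, 2 GC boxes and 2 CCAAT boxes, and the NUP153 window holds none of the 7. Over the set, the NRF1 pattern was in 8 of 29 windows (27.6%), against 6.56% of 35116 promoter windows of the same length, and the ETS letters in 9 (31%) against 8.52%. The GC box was in 65.5% against 42.6%, CCAAT in 41.4% against 32.0%, and the TATA box in 6.9% against 10.7%. The letters of the kappaB pattern were in 1 window, that of KAT5 (3.45%), against 5.78%, and those of AP-1 in 1 (3.45%) against 6.57%. The windows of the set had a median GC content of 64.0%, against 58.0% for all windows, and GC-rich letters are more frequent in GC-rich windows. The 35116 windows were not reduced to 1 per gene or limited to expressed genes, as the 29 were. Whether expressed genes as a whole share the frequencies of the set was not tested. A match is a description of letters and not a bound site.

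ELL2, a subunit of the super elongation complex through which Tat drives elongation, had the lowest fold change of the 31 genes in both comparisons. The gene spans chr5:95220802-95297555 on the minus strand of GRCh37 and has 12 exons in its canonical transcript. Its level in batches 1, 2 and 3 was 326, 428 and 475 CPM with PBS, 329, 388 and 435 CPM with HIV-1, and 346, 270 and 298 CPM with HIV-1+LTA. In batches 2 and 3 the HIV-1+LTA libraries were the lowest of all 9, whereas in batch 1 the HIV-1+LTA library was above both of its partners. Against PBS the log2 fold change was -0.41 ± 0.121 (SE; edgeR adjusted p = 0.205), made of within-batch differences of 0.08, -0.67 and -0.67. Against HIV-1 it was -0.32 ± 0.121 (edgeR adjusted p = 0.256). Without the HIV-1+LTA library of batch 1 the values were -0.64 against PBS (edgeR adjusted p = 1.41e-05) and -0.56 against HIV-1 (edgeR adjusted p = 2.58e-05). With genes of low counts kept in the fit, ELL2 passed in both comparisons. The edgeR adjusted p-values were 7.26e-07 against PBS and 0.000237 against HIV-1. Its log2 fold changes there, -0.41 and -0.32, came from the same 9 libraries and were nearly those of the main fit. This pass is therefore no independent support for a change. That fit called 1 of 31 cofactor genes and 4.14% of all genes against PBS, and 2 of 31 and 4.02% against HIV-1.

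HEXIM1, which holds P-TEFb inactive on 7SK RNA and has the TATA box window printed above, had the opposite sign. It is a gene of 1 exon at chr17:43225842-43229466 on the plus strand of GRCh37. Its level was 84, 77.2 and 47.5 CPM with PBS, 82.4, 80.5 and 52.3 CPM with HIV-1, and 78, 96.5 and 56.6 CPM with HIV-1+LTA. The HIV-1+LTA library was the highest of its batch in batches 2 and 3 and the lowest in batch 1. Against PBS the log2 fold change was 0.16 ± 0.0744 (SE; edgeR adjusted p = 0.315), and without the HIV-1+LTA library of batch 1 it was 0.27 (edgeR adjusted p = 0.00685).

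Of the other genes of the Tat step, CCNT1 was lower in all HIV-1+LTA libraries than in any PBS library, at 92.9, 86.9 and 79.3 CPM against 96.4, 93.5 and 94.2. CCNT1 and DDX3X were the 2 of 31 cofactor genes whose HIV-1+LTA and PBS libraries did not overlap, against 3.82% of all genes. The log2 fold change of CCNT1 was -0.13 ± 0.0516 (SE; edgeR adjusted p = 0.237), and -0.18 without the HIV-1+LTA library of batch 1 (edgeR adjusted p = 0.0355). Without the whole of batch 1 it was -0.17 and did not pass (edgeR adjusted p = 0.0945). CDK9 showed 0.04 ± 0.0561 against PBS and LARP7, which protects 7SK RNA, -0.02 ± 0.0516. The scaffolds of the super elongation complex gave -0.03 ± 0.0538 for AFF1 and -0.11 ± 0.0532 for AFF4. KAT5, an acetyltransferase that binds Tat, gave 0.01 ± 0.062.

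The share of CCNT1 in the counts of CCNT1 and CCNT2 ran from 71.5% to 74.4% over the 9 libraries (95% Wilson intervals within 1.21 points either side), so the balance of the paired cyclins was nearly the same in all. AFF1 took 23.5% to 27.8% of the counts of AFF1 and AFF4.

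**Figure D3:**
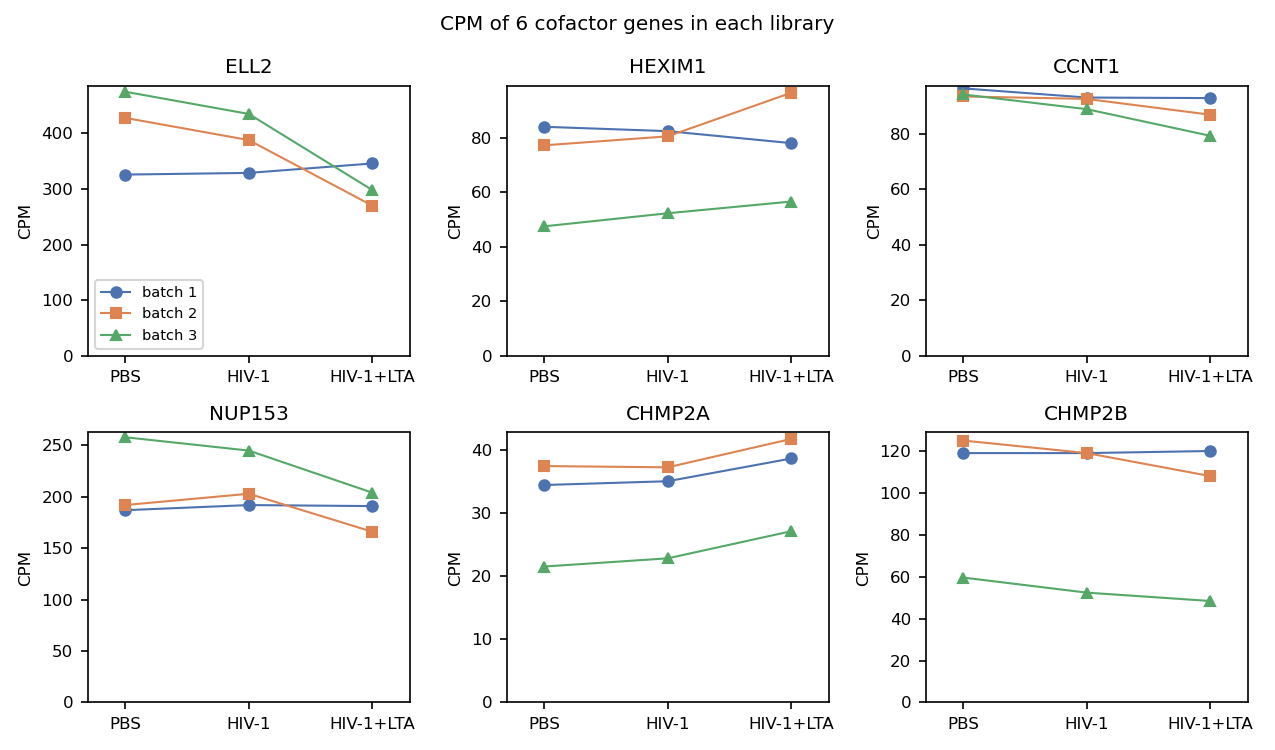
CPM (linear axis from 0) of 6 cofactor genes in each of the 9 libraries, with lines joining libraries of the same batch. Batch 1 is nearly flat for ELL2, NUP153 and CHMP2B, which are lowest with LTA in batches 2 and 3, while CHMP2A is highest with LTA in every batch.

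Among the genes of capsid handling, import and integration, NUP153 had the lowest log2 fold change with LTA in both comparisons. This nucleoporin of the nuclear basket binds the HIV-1 capsid, and its gene spans chr6:17615266-17707156 on the minus strand of GRCh37. Its level was 187, 192 and 258 CPM with PBS, 192, 203 and 245 CPM with HIV-1, and 191, 166 and 204 CPM with HIV-1+LTA. The HIV-1+LTA library was the lowest of its batch in batches 2 and 3 and between its partners in batch 1. The log2 fold change against HIV-1 was -0.19 ± 0.0672 (SE; edgeR adjusted p = 0.248), and without the HIV-1+LTA library of batch 1 it was -0.28 (edgeR adjusted p = 0.00295). With genes of low counts kept in the fit NUP153 passed against HIV-1 (edgeR adjusted p = 0.0488) but not against PBS. The log2 fold change there was again -0.19, from the same libraries, so this pass is no independent support.

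The other 7 genes of this role had log2 fold changes from -0.10 (RANBP2) to 0.10 (PSIP1) in HIV-1+LTA relative to HIV-1 alone, and none was called in any of the fits that left out a library. RANBP2, a pore filament protein that binds the capsid, had 260, 234 and 360 CPM with HIV-1+LTA against 259, 264 and 394 CPM with HIV-1. PPIA had 1730, 1470 and 1210 CPM with HIV-1+LTA against 1780, 1800 and 1180 CPM with HIV-1, with the difference in batch 2 and little in the other batches. The log2 fold changes of CPSF6, which steers the capsid inside the nucleus, and TNPO3, the importin that carries CPSF6, were -0.003 ± 0.0512 and -0.02 ± 0.0465. Those of SMARCB1, an integrase-binding chromatin remodeller subunit, and CBX1 were -0.03 ± 0.0547 and -0.02 ± 0.0492.

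Of the genes of RNA export, DDX3X, a helicase that acts with XPO1 in moving Rev-bound RNA, had lower values in HIV-1+LTA libraries. It had 679, 681 and 692 CPM with PBS, 673, 676 and 679 CPM with HIV-1, and 669, 596 and 636 CPM with HIV-1+LTA. The HIV-1+LTA libraries overlapped neither other group, though in batch 1 the values were close, 669 against 679 and 673 CPM. DDX3X was, with CCNT2, 1 of the 2 cofactor genes without overlap between HIV-1+LTA and HIV-1, against 4.37% of all genes. The log2 fold change of DDX3X against PBS was -0.11 ± 0.053 (SE; edgeR adjusted p = 0.313), and -0.16 without the HIV-1+LTA library of batch 1 (edgeR adjusted p = 0.0483). Without the whole of batch 1 it was -0.15 and did not pass (edgeR adjusted p = 0.11). XPO1 itself had 605 to 932 CPM and a log2 fold change of 0.005 ± 0.0517 against PBS.

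The paired ESCRT-III genes CHMP2A and CHMP2B had values of opposite sign with LTA. Both encode subunits that recruit the VPS4 ATPase to the bud neck. CHMP2A lies at chr19:59062819-59066472 on the minus strand of GRCh37. It had 34.4, 37.4 and 21.5 CPM with PBS, 35, 37.2 and 22.8 CPM with HIV-1, and 38.6, 41.7 and 27.1 CPM with HIV-1+LTA. The HIV-1+LTA library was the highest in every batch, while the groups overlapped because batch 3 was low throughout. The log2 fold change was 0.21 ± 0.0568 against PBS (SE; edgeR adjusted p = 0.205) and 0.18 ± 0.0571 against HIV-1 (edgeR adjusted p = 0.208). Without the HIV-1+LTA library of batch 1 these were 0.24 and 0.21 (edgeR adjusted p = 0.0244 and 0.0488), and without the whole of batch 1 they were 0.25 and 0.21, as large but not called (edgeR adjusted p = 0.0601 and 0.106).

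CHMP2B lies at chr3:87276421-87304706 on the plus strand of GRCh37. It had 119, 125 and 59.6 CPM with PBS, 119, 119 and 52.4 CPM with HIV-1, and 120, 108 and 48.4 CPM with HIV-1+LTA. Batch 1 held at 119 to 120 CPM, and the HIV-1+LTA library was the lowest of its batch in batches 2 and 3. The log2 fold change against PBS was -0.17 ± 0.0592 (SE; edgeR adjusted p = 0.219), and -0.24 without the HIV-1+LTA library of batch 1 (edgeR adjusted p = 0.0102).

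As a ratio within a library, which does not depend on scaling, CHMP2A made up 22.4%, 23% and 26.5% of the counts of the pair with PBS in batches 1, 2 and 3. With HIV-1 the shares were 22.8%, 23.8% and 30.4%, and with HIV-1+LTA 24.4%, 27.9% and 35.9%. The 95% Wilson intervals reached at most 1.55 points either side and cover counting error only. The share was ordered PBS, HIV-1, HIV-1+LTA in each batch, though the step from PBS to HIV-1 in batches 1 and 2 was smaller than that interval. The share shows unequal change of the pair and was given no test. For the ATPase pair, VPS4A took 23.8% to 28.6% of the counts of VPS4A and VPS4B, with no common order of the groups.

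**Figure D4:**
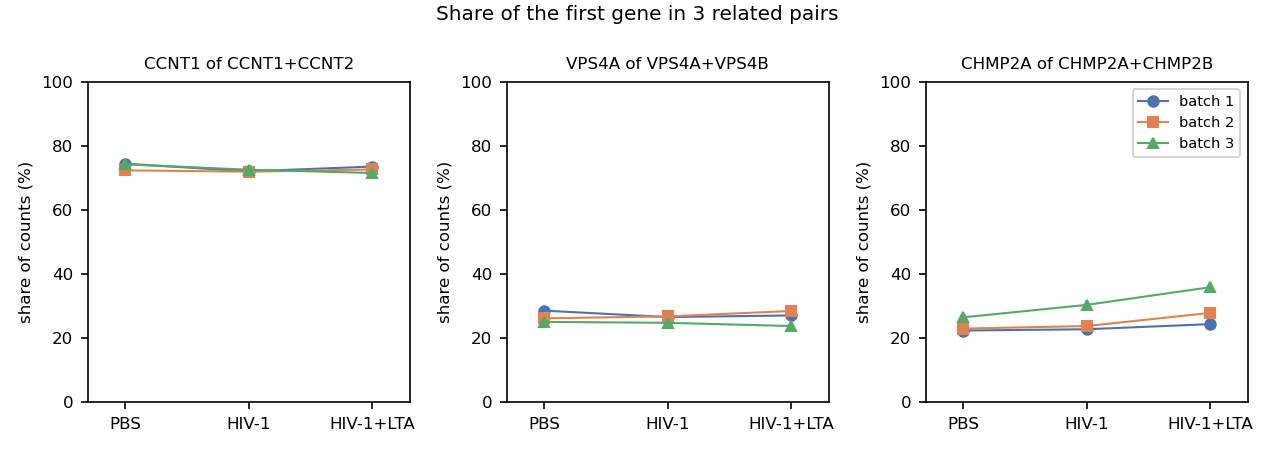
Share of the first gene in the summed counts of 3 related pairs, in percent, for each library, with lines joining libraries of the same batch. CHMP2A is at 26.5% with PBS and 35.9% with HIV-1+LTA in batch 3, and at 22.4% and 24.4% in batch 1, while the other pairs stay between 71.5% and 74.4% and between 23.8% and 28.6%.

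The rest of the budding genes showed smaller differences for HIV-1+LTA against PBS. TSG101, the ESCRT-I subunit bound by the late domain of Gag, had 39.8, 38.5 and 26.4 CPM with HIV-1+LTA against 40, 39.2 and 31.2 CPM with PBS. Its log2 fold change was -0.08 ± 0.0604, that of PDCD6IP, which encodes the Gag-binding adaptor ALIX, -0.02 ± 0.0466, and that of RAB7A -0.07 ± 0.0484. The ATPase genes gave -0.08 ± 0.0639 for VPS4A and -0.07 ± 0.0552 for VPS4B, and the ESCRT-III genes -0.03 ± 0.0515 for CHMP3, 0.16 ± 0.145 for CHMP4A and 0.01 ± 0.0528 for CHMP4B. Of the ubiquitin ligases that can release particles, NEDD4L gave -0.01 ± 0.0475 and ITCH -0.14 ± 0.0567 (SE; edgeR adjusted p = 0.258). ITCH had 237, 212 and 180 CPM with HIV-1+LTA against 237, 238 and 213 with PBS, and its value without the HIV-1+LTA library of batch 1 was -0.20 (edgeR adjusted p = 0.014).

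Over the whole set, 23 of 31 genes had a negative log2 fold change for HIV-1+LTA against PBS, and 25.8% a positive one, against 50.4% of all genes. The medians were -0.0338 for the set and 0.00164 over all genes. For HIV-1+LTA against HIV-1, 21 of 31 were negative, with medians of -0.0273 and -0.00382. With library totals alone the medians of the set turned positive, at 0.0261 and 0.00478, and still lay below those of all genes, at 0.0608 and 0.0282. The 95% interval lay within 1.25-fold for 28 of 31 genes in each comparison, against 50.8% and 51.4% of all genes.

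The authors' deposited table, whose log2 fold changes match those of a DESeq2 fit of HIV-1+LTA against PBS with batch as a term (all 19990 genes within 0.01), also holds all 31 genes. Of the 31 genes in the authors' deposited table, 0 had an adjusted p below 0.05, against 1.93% of the genes with an adjusted p in that table. Among the 31 genes of the authors' deposited table, 25 had a negative log2 fold change, against 50.7% of all genes, and the lowest adjusted p was 0.108, for CHMP2A.

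The other genes of the same steps were read from lists of 37 further elongation genes, 39 of import and integration, 23 of RNA export and 32 tested of 33 of ESCRT and budding. In edgeR 0 genes of these lists passed in any of the 3 treatment comparisons. In DESeq2 with the block 2 passed, both for HIV-1+LTA against PBS, which is 1.56% of the 128 list genes with an adjusted p, against 1.93% of all genes. CDK7, the kinase of the initiation factor TFIIH that also activates CDK9, lay at -0.29 ± 0.0761 on the log2 scale (SE; DESeq2 adjusted p = 0.0257), with 78, 64.9 and 116 CPM against 81, 83 and 157. NPM1, a nucleolar chaperone that binds Rev, lay at -0.26 ± 0.0782 (SE; DESeq2 adjusted p = 0.0499), with 1420, 1090 and 1480 CPM against 1440, 1460 and 1850. In edgeR their adjusted p-values were 0.205 and 0.208.

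For the remaining steps the genes with the lowest p did not pass. With HIV-1 against PBS these were CREBBP at 0.10 ± 0.0475, MLLT1 at 0.11 ± 0.0553, NUP214 at 0.08 ± 0.0513, SMARCD1 at 0.06 ± 0.0462, NXF1 at 0.09 ± 0.0479, NXT1 at -0.16 ± 0.0852, STAMBP at -0.11 ± 0.048 and PTPN23 at 0.13 ± 0.0623 (each a log2 fold change ± SE). With LTA added to virus, the export list lay below 0 in 21 of 23 genes, with a median of -0.0817, against 51.1% of all genes and a median of -0.00382. The lean lay in batches 2 and 3. Medians of its within-batch differences were 0.0013, -0.128 and -0.0832 in batches 1, 2 and 3, and 7 genes were lower in all 3. The lowest p of the export list belonged to RAN, the GTPase that loads XPO1, at -0.17 ± 0.0588, and to NPM1 at -0.22 ± 0.0812. In the same comparison the lowest p of the elongation list belonged to CDK12 at -0.14 ± 0.0525 and MNAT1 at -0.16 ± 0.0643. That of the import and integration list belonged to the kinesin adaptor FEZ1 at 0.34 ± 0.119 and the dynein heavy chain DYNC1H1 at -0.16 ± 0.0604. The ESCRT list had AMOT at 0.18 ± 0.0818 and VPS37A at -0.13 ± 0.0594. Against PBS the lists had MLLT1 at 0.16 ± 0.0553, BICD2 at -0.17 ± 0.0543, KIF5B at -0.17 ± 0.0625, EIF5A at -0.21 ± 0.0704, PTPN23 at 0.19 ± 0.0622 and VPS37D, at 0.908 CPM or less in every library, at 0.90 ± 0.293.

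Between batches the cofactor genes differed far more than between treatments. Batch 3 was compared with the mean of batches 1 and 2 in the same fit. The libraries of a batch act as its replicates in this contrast. Its SE and p-values therefore describe spread between libraries and not how far batches vary. In edgeR 25 of 31 cofactor genes (80.6%) passed, 12 higher and 13 lower in batch 3, against 71.2% of all genes, 35.2% higher and 36% lower. Groups of libraries did not overlap for 21 of 31 genes, against 60.8% of all genes. What the batches are beyond their number in the labels is not given. In batch 3 several markers of the line had other levels too: of the 9 stellate and mesenchymal markers at 1 CPM or more, 3 were higher there without overlap, 1 was lower and 5 overlapped. VIM was at 2450 to 3130 CPM in batch 3 and at 539 to 793 CPM elsewhere, COL1A2 at 271 to 323 against 33.2 to 41.1 CPM, and LOX at 948 to 1240 against 122 to 193 CPM. The collagen gene COL3A1 was the lower one, at 146 to 273 against 389 to 724 CPM. Whether such shifts bear on the cofactor genes was not tested.

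The budding genes were mostly lower in batch 3, with 9 of 12 called lower, 2 higher and a median log2 difference of -0.30. CHMP2B fell by 1.15 on the log2 scale (SE 0.0543, edgeR adjusted p = 4.01e-09), from 108 to 125 CPM in batches 1 and 2 to 48.4 to 59.6 CPM in batch 3. CHMP2A fell by 0.65, VPS4A by 0.49, TSG101 by 0.48, PDCD6IP by 0.36, NEDD4L by 0.31 and VPS4B by 0.28. ITCH and RAB7A fell by less, at 0.20 and 0.13. CHMP4A was higher at 0.48 ± 0.124, and CHMP3 at 0.15 ± 0.0445 (-0.006 with library totals alone). The wider list of 32 ESCRT and budding genes had no such lean, with 14 higher and 12 lower.

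Genes of the nuclear pore and elongation scaffolds went the other way. In batch 3 RANBP2 was higher by 0.58 ± 0.043 (SE; edgeR adjusted p = 1.6e-07), NUP153 by 0.32 ± 0.0575, and TNPO3 and PSIP1 each by 0.25. XPO1 was higher by 0.51 ± 0.044, with 855 to 932 CPM against 605 to 662 CPM, while DDX3X showed 0.01 ± 0.0459 (-0.15 with library totals alone). AFF4 and AFF1 were higher by 0.49 and 0.33, KAT5 by 0.53 and CDK9 by 0.16. Within the same roles HEXIM1 fell by 0.67 (SE 0.0666, edgeR adjusted p = 2.08e-06), PPIA by 0.49, CPSF6 by 0.21 and SMARCB1 by 0.12, whereas CBX1 was higher by 0.14 (-0.02 with library totals alone).

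The balance of these calls depends on scaling. TMM factors were 0.899 to 0.958 in batch 3 and 1.01 to 1.08 elsewhere. With library totals alone the median of all genes shifted to -0.17, 8 cofactor genes were called higher and 18 lower, and over all genes 4264 were higher and 7367 lower against 5669 and 5809 with TMM factors. The genes that changed sign, CBX1, CHMP3 and DDX3X, still lay above that shifted median, and CDK9 (0.004) and PSIP1 (0.09) were then no longer called. The 6 cofactor genes not called with TMM factors were CCNT1, CCNT2, LARP7, ELL2, DDX3X and CHMP4B. Leaving out 1 library ended the call of SMARCB1 in 6 of 9 fits, at -0.09 without PBS of batch 3 to -0.15 without HIV-1 of batch 3. Without PBS of batch 3, CHMP3 at 0.12 and CBX1 at 0.10 did not pass. Without HIV-1 of batch 3, CDK9 at 0.13 and CHMP4A at 0.37 did not, and without HIV-1+LTA of batch 3, CHMP3 at 0.13 and RAB7A at -0.11 did not. ELL2 was called, at 0.31, without the HIV-1+LTA library of batch 1 and without that of batch 3, and at 0.17 with no filter on low counts.

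**Figure D5:**
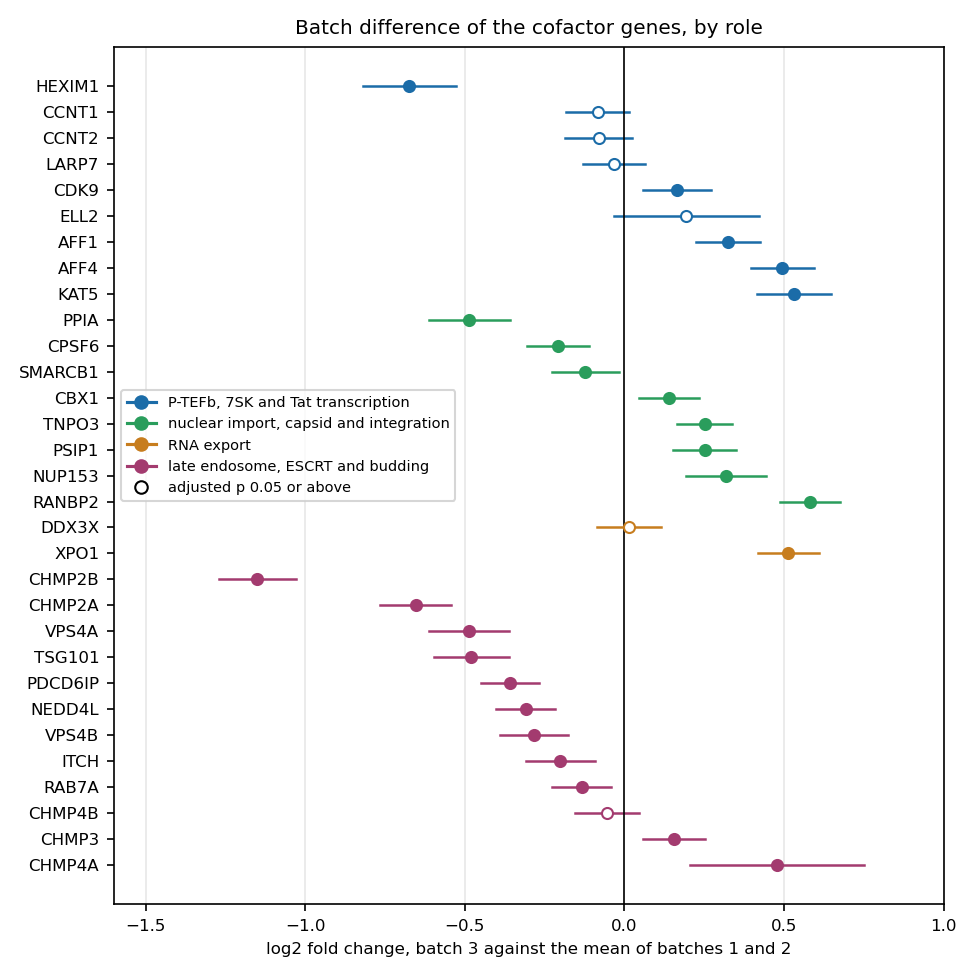
Log2 fold change of batch 3 against the mean of batches 1 and 2 for each cofactor gene, with its 95% interval, grouped and coloured by role, with open points for genes that did not pass. CHMP2B lies at -1.15 and RANBP2 at 0.58 with TMM factors, and 9 of the 12 budding genes are called lower.

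Of 166 deposited ChIP-seq peaks from cells given virus, 0 lay inside any of the 31 genes, while 0.585% of 20176 protein-coding genes held a peak. The labels of the ChIP-seq samples name another cell line (Lx3 and Lx5) in 1 field and Lx2 in their titles. The peak nearest to a start lay 23726 bases from that of HEXIM1.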

How the data were processed

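Per the submitters' processing notes, the build was hg19 and the tools named were STAR, HTSeq, fastp and SAMtools, with deepTools, bedtools and Bowtie2 listed too; versions and the strand setting are not given in the sources used here. The table the authors deposited holds raw counts for named genes, which sum to 50628144 to 90599780 in a library. Their deposited comparison table gives a mean signal (size-factor scaled), log2 fold changes with errors in log2, a score (the Wald statistic), and p-values before and after adjustment. The deposited peak list has no value per peak.

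Deposited counts were tested in edgeR 4.0.16 (R 4.3.3) by its quasi-likelihood test, with TMM scaling, filterByExpr with the groups (16117 genes), group and replicate number as terms, 1 fit over all 9 libraries and Benjamini-Hochberg adjustment over all genes tested; a gene passed at an adjusted p below 0.05. The replicate number was in the fit because the labels call it the batch. A check of this pairing correlated deviations from the group means across genes: same-number libraries gave 0.705 to 0.917, and libraries of different number -0.835 to 0.764. Within batches 1 and 2, same-number pairs gave 0.705 to 0.784 and different-number pairs 0.684 to 0.764. The check sets batch 3 apart but cannot tell batches 1 and 2 from each other, because these ranges overlap. The pairing within batches 1 and 2 therefore rests on the labels. CPM used TMM-scaled library sizes, and log2 CPM a prior count of 2. Alternatives were DESeq2 1.42.0 and limma-voom (limma 3.58.1), fits without the block, other scalings and filters, and leaving out libraries. Peaks and genes were placed on GRCh37. On counts simulated for HIV-1+LTA against HIV-1 (16117 genes), edgeR with the block recovered 28.4%, 59.7% and 83.3% of 1.2-fold, 1.5-fold and 2-fold changes, with 9 false calls.

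The 31 genes, the other lists and the rule for named genes (all 31; of each other list up to 4 passing genes per treatment comparison, or at most 2 with the lowest p) were chosen with earlier results of these data known. For the batch comparison the other lists are given as counts.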

Additional observations from a re-analysis of the deposited data

How the results depend on the processing

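For HIV-1 against PBS the 0 genes called became 3 in DESeq2 with the block, 1 in DESeq2 with no replicate block, 30 with no filter on low counts and 2 with only the 6 libraries compared; leaving out libraries or batches gave 0 to 5, and 0 cofactor genes were called in any of these fits. For HIV-1+LTA against HIV-1 the 0 genes called became 252, 1 and 1016 in the first 3 of these, with 2 cofactor genes at no filter, and leaving out libraries or batches gave 0 to 2390 genes and 0 to 4 cofactor genes. For HIV-1+LTA against PBS they became 236 in DESeq2 with the block and 1045 with no filter, with 1 cofactor gene, and 0 to 2648 genes and 0 to 8 cofactor genes on leaving out libraries or batches. The edgeR fit with no replicate block called 0 genes in each of the 3, and in simulation it recovered 0% of 1.5-fold changes. The cause of these differences was not tested. For the batch comparison, 10282 to 11757 genes and 22 to 26 cofactor genes were called on leaving out 1 library; fits without the block, of 6 libraries or without a batch were not run for it. With library totals only, 3 genes changed sign there: CBX1 at -0.021, DDX3X at -0.15 and CHMP3 at -0.0061. Of 2294 alternative fold changes of the cofactor genes, 2247 kept their direction and side of the threshold, where the direction counted only for called values, 30 passed where the main value did not, and 17 lost a call. Depth limits chiefly CHMP4A, with 159 to 257 counts per library.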
